A study of Mus musculus with 6 samples.

Results

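Ephrins and Eph receptors were examined in the ventricles of mice whose hearts carry an activated Akt. A list of 10 family genes was chosen by family membership with earlier results of these same arrays known, the low Efnb3 signal among them, and each gene was read at its probe set with the highest mean over all 6 arrays. Of the 10, 9 had at least 1 probe set assigned to that gene alone (20 probe sets in all, of 18193 genes and 34945 such probe sets measured). They were the ephrins Efnb3, Efnb1, Efnb2, Efna1 and Efna5 and the receptors Epha2, Epha4, Ephb1 and Ephb4, and Ephb2 was not analysed here. The arrays came from ventricular tissue of mice aged 8 weeks, 3 arrays from wild-type mice and 3 from mice labelled caAkt, in which an activated Akt is expressed constitutively and only in the heart. The promoter behind the transgene, the strain, the sex and whether 1 array stands for 1 heart are not given in the sources used here, so the errors given here cover differences between these arrays, whether biological or technical.

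Ephrins are ligands held in the cell membrane, and Eph receptors are the receptor tyrosine kinases that bind them on a touching cell. A-type ephrins are tethered by a lipid anchor, whereas B-type ephrins cross the membrane and have a cytoplasmic tail. A contact can signal forward, into the cell with the receptor, and in reverse, into the cell with the ephrin. The family is known for guiding axons and for sorting arterial from venous endothelium, where ephrin-B2 marks arteries and EphB4 marks veins. Ephrin-B1 is also known at the lateral membrane of cardiomyocytes.

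In caAkt ventricles the signals of 4 of the 9 measured genes were lower and of 0 were higher. Efnb3 was lower by 5.79-fold, Epha4 by 2.21-fold, Efna1 by 1.50-fold and Efnb1 by 1.31-fold. Efnb2, Efna5, Epha2, Ephb1 and Ephb4 were not called. Here a gene is called at an adjusted p under 0.05 in the limma fit over all 18193 genes, in which 28.5% of genes were called, 16.1% higher and 12.4% lower. The groups did not overlap for the same 4 genes, against 42.4% of all genes. Because these arrays were in view when the list was made, the members' counts and fold changes describe the arrays and are not tests.

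DNA just upstream of the start sites of Epha4, Efna1 and Efnb1 is shown because these are the called members with an entry in the RefSeq promoter table of build GRCm38.p6. That table held 9 of the 10 listed genes and had no entry for Efnb3. Each line gives the 250 bases before an annotated start, 5' to 3' on the gene's own strand. Capitals mark the GC box GGGCGG (found as written or as CCGCCC) and the core TGGGAA (or TTCCCA) of the Notch effector RBPJ. The windows are chr1:77515089-77515338 (minus strand) for Epha4, chr3:89280952-89281201 (minus strand, the more upstream of the annotated starts) for Efna1 and chrX:99135811-99136060 (plus strand) for Efnb1.
Epha4: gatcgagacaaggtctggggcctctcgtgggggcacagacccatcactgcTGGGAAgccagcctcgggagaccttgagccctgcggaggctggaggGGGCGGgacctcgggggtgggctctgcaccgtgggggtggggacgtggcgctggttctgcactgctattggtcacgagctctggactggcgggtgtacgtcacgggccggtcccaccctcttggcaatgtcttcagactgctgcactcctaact
Efna1: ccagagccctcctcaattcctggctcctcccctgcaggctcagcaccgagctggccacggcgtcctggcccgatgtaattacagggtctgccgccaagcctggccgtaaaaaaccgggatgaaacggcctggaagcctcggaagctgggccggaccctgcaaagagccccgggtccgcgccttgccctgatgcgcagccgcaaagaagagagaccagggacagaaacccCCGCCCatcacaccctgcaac
Efnb1: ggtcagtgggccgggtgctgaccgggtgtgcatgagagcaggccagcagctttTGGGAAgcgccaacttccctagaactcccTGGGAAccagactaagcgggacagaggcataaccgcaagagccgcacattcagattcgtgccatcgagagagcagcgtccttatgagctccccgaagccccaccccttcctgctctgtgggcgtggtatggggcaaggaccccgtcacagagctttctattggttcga

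A GC box stood in the Epha4 and Efna1 windows and not in the Efnb1 window, and 32.7% of all 32851 windows of this length hold one. The RBPJ core stood in the Epha4 and Efnb1 windows, against 21.6% of all windows. It stood in none of the windows of the other listed genes with an entry, the called gene Efna1 included. The matches shown do not overlap each other. Among the 10 windows of 9 listed genes, 7 held a GC box and 1, that of Efnb2, the TATA letters TATAAA (12.4% of all windows). The RBPJ core was in 2 of the 10, near its share of all windows. The FoxO core GTAAACA (3.17% of all windows) and the E-box with letters CACGTG (6.02%) stood in 0 of the 10, both strands searched. A match is a run of letters and not a measured binding site.

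Values are RMA signals on the log2 scale, so a difference of 1 is a change of 2-fold. Levels of different probe sets are not comparable, and differences are read only between the groups within a probe set. Signals of Y-linked genes serve below only as a rough guide to the low end of the scale. Sums over marker lists weigh the brightest probe sets most and are set against each other only within a list. Among the ligands, Efnb3 encodes ephrin-B3, known as a repellent at the midline of the spinal cord. It had 1 probe set. Its log2 signal was 10.54, 10.59 and 10.83 in the 3 wild-type arrays and 8.06, 8.16 and 8.14 in the caAkt arrays. All caAkt values lay more than 2 log2 units below the lowest wild-type value. The log2 fold change (caAkt minus wild-type) was -2.53 ± 0.09 (moderated SE, n = 3 arrays per group), with a 95% interval of -2.73 to -2.33, and it was -2.59 to -2.44 when single arrays were left out.

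Efnb1 encodes ephrin-B1, a ligand of EphB receptors. Its brightest probe set read 9.62, 9.63 and 9.73 in wild-type and 9.27, 9.15 and 9.41 in caAkt arrays. The groups did not overlap, and the highest caAkt array came within about 0.2 log2 units of the lowest wild-type array. The log2 fold change was -0.39 ± 0.08 (SE), with an interval of -0.57 to -0.20. The other probe sets of Efnb1 were split. One gave -0.35 ± 0.08 and was called lower, and the other gave -0.12 ± 0.12, overlapped between the groups and was not called. The first pair are of the type that matches several transcript variants of a gene (names ending in _a_at), and the uncalled one is a plain probe set. Efnb1 was therefore not called when only plain probe sets were used.

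Efnb2 encodes ephrin-B2, the arterial ligand. It read 8.96, 8.85 and 8.87 in wild-type and 8.88, 8.70 and 8.93 in caAkt arrays, and the groups overlapped. Its log2 fold change was -0.05 ± 0.08, and the interval of -0.24 to 0.13 allows a modest difference in either direction. Its 3 other probe sets gave -0.15, 0.01 and -0.09, none of them called.

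Efna1 encodes ephrin-A1, a lipid-anchored ligand known from endothelium and a main partner of EphA2. It read 9.35, 9.29 and 9.48 in wild-type and 8.81, 8.85 and 8.71 in caAkt arrays. Every caAkt array was below every wild-type array. The log2 fold change was -0.59 ± 0.08, with an interval of -0.76 to -0.41, and the second probe set gave nearly the same value (-0.60 ± 0.13, called lower). Efna5 encodes ephrin-A5, known for repelling retinal axons. It read 9.59, 9.74 and 9.67 in wild-type and 9.70, 9.61 and 9.69 in caAkt arrays, fully interleaved. Its log2 fold change was 0.006 ± 0.07 (interval -0.15 to 0.17) and 0.09 at its dimmer probe set.

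**Figure D1:**
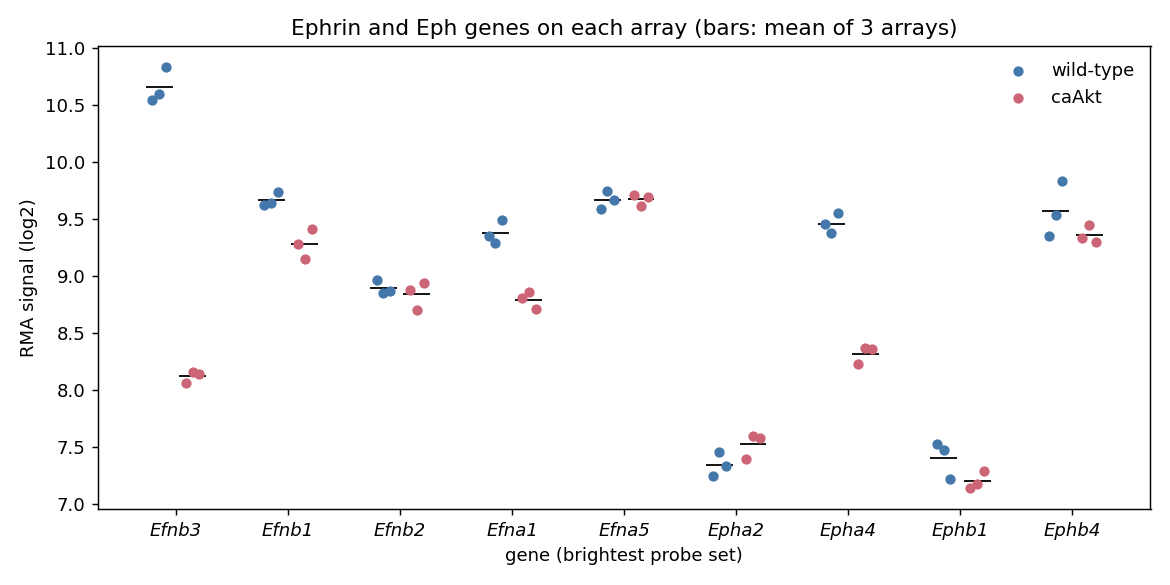
RMA signal (log2, vertical axis) of the 9 measured genes on each array, blue for the 3 wild-type and red for the 3 caAkt arrays, with a bar at each group's mean. The groups are separate for Efnb3, Efnb1, Efna1 and Epha4 and overlap for the 5 others; heights are not comparable between genes.

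Among the receptors, Epha4 is known for binding ephrins of both types. Its brightest probe set read 9.45, 9.37 and 9.55 in wild-type and 8.22, 8.36 and 8.35 in caAkt arrays. The caAkt arrays were about 1 log2 unit lower throughout. The log2 fold change was -1.14 ± 0.08, with an interval of -1.32 to -0.97.

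Epha4 had 5 probe sets, and the size of the difference depended on which was read. A second went from 9.07, 8.81 and 8.67 in wild-type to 7.00, 7.03 and 6.78 in caAkt, a log2 fold change of -1.92 ± 0.12. The fold of 3.77 there compares with 2.21 at the brightest probe set. Others gave -0.998 ± 0.12 and -0.46 ± 0.12, both called lower, and the dimmest gave 0.045 ± 0.10 and was not called. This dimmest probe set read 3.79 to 4.12 on the 6 arrays. The Y-linked genes Kdm5d, Uty and Eif2s3y spanned a like range, 3.87 to 4.57, on arrays with an Xist signal of 11.36 to 11.47. The exons that the probe sets cover were not analysed here.

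Epha2, the partner of ephrin-A1, read 7.24, 7.45 and 7.33 in wild-type and 7.39, 7.60 and 7.58 in caAkt arrays. It was the one member other than Efna5 with a value above 0, a log2 fold change of 0.18 ± 0.09 (interval -0.01 to 0.38), and its groups overlapped. Ephb1, a receptor of B-type ephrins, read 7.52, 7.47 and 7.21 in wild-type and 7.14, 7.17 and 7.29 in caAkt arrays. Wild-type replicate 3 lay among the caAkt values. The log2 fold change was -0.20 ± 0.09 (interval -0.42 to 0.01), and leaving out wild-type replicate 3 brought it to -0.30, which was called. Ephb4, the venous receptor of ephrin-B2, read 9.34, 9.53 and 9.83 in wild-type and 9.33, 9.44 and 9.29 in caAkt arrays. The wild-type arrays spread over about 0.5 log2 units, more than the distance between the group means. Its log2 fold change was -0.21 ± 0.12 (interval -0.48 to 0.05). Leaving out wild-type replicate 1 gave -0.33, whereas leaving out wild-type replicate 3 gave -0.08, and neither was called.

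**Figure D2:**
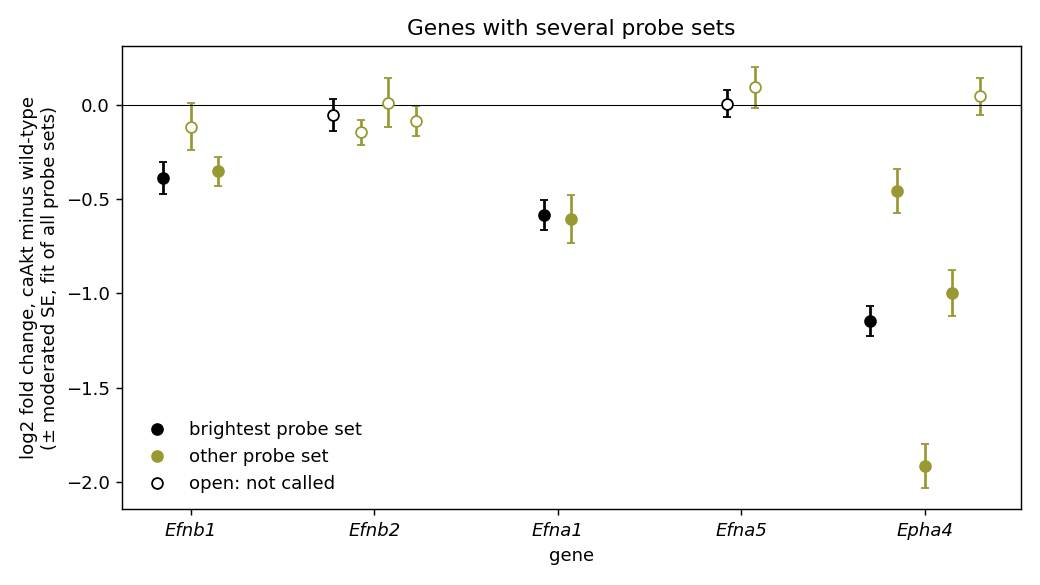
Log2 fold change (caAkt minus wild-type, vertical axis, with moderated SE from a fit of all probe sets) for every probe set of the 5 genes with more than 1. Black marks the brightest probe set and open circles were not called; Efna1 gives -0.59 and -0.60, whereas Epha4 runs from -1.92 to 0.045.

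Across the 4 called members, 9 of their 11 probe sets were called lower, and across the 5 others 0 of 9 probe sets were called in either direction. These counts include the brightest probe set of each gene, whose own result set whether the gene counted as called. They are therefore a description and no separate check of the calls. The median log2 fold change of the 9 genes was -0.21, beside -0.04 over all genes. Set side by side, the known partners ephrin-A1 and EphA2 had log2 fold changes of -0.59 and 0.18, and ephrin-B2 and EphB4 had -0.05 and -0.21. The differences between partners were not tested.

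The remaining 12 family genes, which the list leaves out, were all measured, and they were compared in the same fit. In caAkt hearts 1 of the 12 fell and 0 rose (8.33%, beside 28.5% of all genes), with a median of -0.04. Epha10, whose kinase domain is thought to be inactive, fell by 0.25 ± 0.07 (limma, adjusted p = 0.0280) from 7.84, 7.95 and 7.91 in wild-type to 7.56, 7.70 and 7.69. The groups did not overlap. The call of Epha10 was lost (limma, adjusted p up to 0.105) without wild-type replicate 2, wild-type replicate 3 or caAkt replicate 1. Epha8 was the other gene with separate groups, at -0.25 ± 0.09 (limma, adjusted p = 0.0773), and it was called without wild-type replicate 1 (-0.33).

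The other ligands outside the list gave -0.19 ± 0.13 for Efna3, -0.035 ± 0.07 for Efna2 and 0.07 ± 0.08 for Efna4. Among the receptors, Ephb3, which binds B-type ephrins, gave 0.11 ± 0.07 and Ephb6, a receptor without kinase activity, gave 0.18 ± 0.09. Epha1 (-0.12), Epha3 (-0.04), Epha5 (-0.003), Epha6 (0.21) and Epha7 (-0.06) were not called either. Epha3 and Epha6 read 4.41 to 4.66 and 4.03 to 4.61, at or near the signal of the Y-linked genes and thus near the low end of the scale. The probe sets of Epha7 disagreed. Its brightest was not called, and 2 dimmer ones fell by 0.34 ± 0.09 and 0.85 ± 0.23 (limma over all probe sets, adjusted p = 0.0208 and 0.0277). Its dimmest gave -0.06 and was not called. Other probe sets of Epha3 gave 0.25, 0.16 and 0.17, opposite in sign to its brightest, and those of Epha1 gave 0.11 and -0.21. Those of Epha5 gave -0.13, -0.04 and -0.17, that of Efna2 -0.07 and that of Efna3 -0.02. None of these was called, although the groups did not overlap at the Epha3 value of 0.25 and at that of Efna2.

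**Figure D3:**
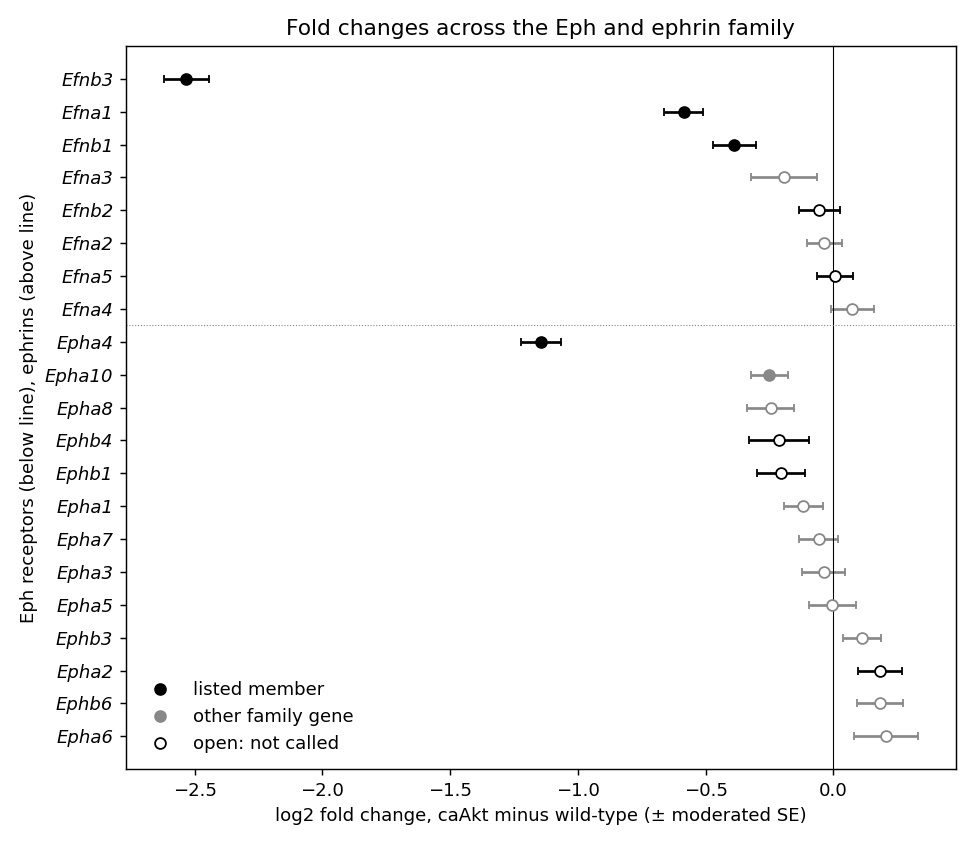
Log2 fold change (caAkt minus wild-type, horizontal axis, with moderated SE) of the 21 measured family genes, ephrins above the dotted line and receptors below it. Filled points were called; Efnb3 (-2.53) and Epha4 (-1.14) lie apart from the other genes, which stay between -0.59 and 0.21.

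Genes that carry the forward signal inside the receptor-bearing cell rose more often than they fell. Of 33 measured, 11 rose and 3 fell (42.4% called, beside 28.5% of all genes), and the median was 0.22 beside -0.04 for all genes. Inppl1, the lipid phosphatase SHIP2 that binds EphA2, rose by 0.53 ± 0.07 (limma, adjusted p = 0.000570). Ngef, the exchange factor ephexin that binds EphA4, rose by 0.74 ± 0.10, and Chn1, a chimaerin that shuts off Rac downstream of EphA4, by 0.48 ± 0.08. The phosphatase Ptpn11 (SHP2) rose by 0.47 ± 0.09 and the adaptor Sla by 0.52 ± 0.10. Anks1, an adaptor of EphA receptors also called Odin, fell by 0.68 ± 0.10 (limma, adjusted p = 0.00100) and Arhgef15, an ephexin known from vessels, by 0.48 ± 0.07. Abl1 fell by 0.26 ± 0.09, but its adjusted p (limma) of 0.0498 exceeded 0.05 without any single array other than caAkt replicate 2 (up to 0.136). With plain probe sets 7 of 30 rose, beside 2478 of 16591 genes in all.

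Partners of the ephrin-B tail and of reverse signalling went both ways. Of 19 measured, 3 rose and 3 fell (31.6% called, near the 28.5% of all genes), with a median of -0.02. Reln, the secreted protein reelin that binds ephrin-B, rose by 0.68 ± 0.13 (limma, adjusted p = 0.00395). Dock1, a Rac activator, rose by 0.44 ± 0.07 and the PDZ protein Sdcbp (syntenin) by 0.37 ± 0.10. The PDZ protein Pick1 fell by 0.65 ± 0.09 (limma, adjusted p = 0.000713) and Tjp1, the junction protein ZO-1, by 0.39 ± 0.09. Grip2, also a PDZ protein, fell by 0.25 ± 0.08 (limma, adjusted p = 0.04997) and was not called without any single array (up to 0.147). Sdcbp was not called without wild-type replicate 3, caAkt replicate 1 or caAkt replicate 3 (up to 0.0734). With plain probe sets 4 of 16 rose and 1 fell, beside 2478 higher and 1976 lower of 16591 genes in all.

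Genes that cut or dephosphorylate Eph receptors and ephrins held the largest rises of the pathway. Of 16 measured, 9 rose and 1 fell (62.5% called, beside 28.5% of all genes), with a median of 0.27 beside -0.04 for all genes. Mmp14, a membrane-bound metalloprotease known to cut EphA2, rose by 2.16 ± 0.08 (limma, adjusted p = 5.26e-07). Its log2 signal went from 8.40 ± 0.10 to 10.56 ± 0.06 (SD, n = 3). Ptprf, the receptor phosphatase LAR, rose by 1.92 ± 0.11, the protease Adam8 by 1.75 ± 0.08, the gelatinase Mmp2 by 1.22 ± 0.10 and the phosphatase Ptpn1 (PTP1B) by 0.62 ± 0.08. Mmp9, the other gelatinase, fell by 0.53 ± 0.12 (limma, adjusted p = 0.00832). These enzymes act on many other proteins. On the same arrays 6 of 7 macrophage and 6 of 8 fibroblast markers rose, beside 16.1% of all genes, and their part in these values was not tested.

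**Figure D4:**
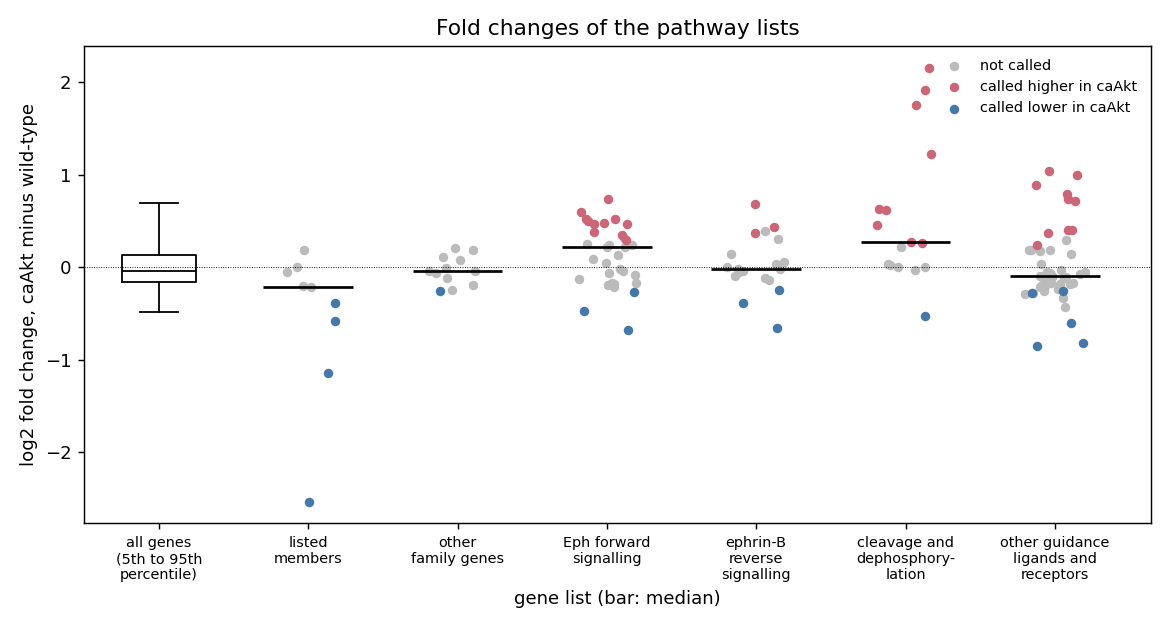
Log2 fold change (caAkt minus wild-type, vertical axis) of each gene in the family and pathway lists, with a bar at each list's median and, at the left, a box for all genes with whiskers at the 5th and 95th percentiles. Red and blue points were called higher or lower; the cleavage and dephosphorylation list reaches 2.16 and the listed members reach -2.53.

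Whole ventricle holds several cell types, and in bulk tissue fewer cells of a type and less RNA per cell cannot be told apart. All 63 measured marker genes read above the Y-linked signal on every array, the cardiomyocyte genes Myh6, Tnnt2 and Myl2 included, as the labelled tissue requires. The sum of the 8 cardiomyocyte markers (linear RMA units) was 212600 to 233100 in wild-type and 199300 to 203900 in caAkt, and 3 of the 8 (Pln, Tnni3 and Ryr2) fell. Myl2 (15.22 to 15.42) and Myh6 (14.94 to 15.27) read near the array maxima of 15.32 to 15.45. Whether differences are reduced at that end of the scale was not tested. Of 9 pan-endothelial markers 3 fell (Kdr, Tek and Emcn), with sums of 12120 to 12480 and 9652 to 10710. Arterial markers moved both ways, with Hey1 and Dll4 lower and Unc5b higher (sums of 6398 to 8300 and 5612 to 6664), and 1 of 5 venous markers, Flt4, which lymphatic vessels also carry, rose (5012 to 6395 and 4809 to 5691). Of the mural markers, Abcc9 and Kcnj8, channel genes that cardiomyocytes also express, fell and Cspg4 rose (24060 to 27390 and 18020 to 23640). The largest shifts were those of the fibroblast and macrophage lists. In the fibroblast list 6 of 8 rose (24570 to 30620 and 60740 to 69420), and Dpt (0.17) and Tcf21 (0.07) were not called. In the macrophage list 6 of 7 rose and Cd163 fell (7464 to 9124 and 21280 to 25650). Of 5 nerve markers 1, Cdh19, fell (405 to 431 and 366 to 414), and of 5 lymphocyte markers only Ptprc, which all white blood cells carry, rose (621 to 735 and 919 to 1141). The share called was 37.5% of the cardiomyocyte, 33.3% of the pan-endothelial, 33.3% of the arterial and 20% of the venous markers. It was 42.9% of the mural, 75% of the fibroblast, 100% of the macrophage, 20% of the nerve and 20% of the lymphocyte markers. Over all genes 28.5% were called, 16.1% higher and 12.4% lower. Ryr2 and Emcn were each called in only 2 of the 6 fits without a single array (limma, adjusted p up to 0.156 and 0.0906). Pdgfra of the fibroblast list was called in 3 of them, Dll4, Cd163 and Cdh19 in 4 each and Unc5b in 5. The part of these shifts in the values of the ephrin and Eph genes was not tested.

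**Figure D5:**
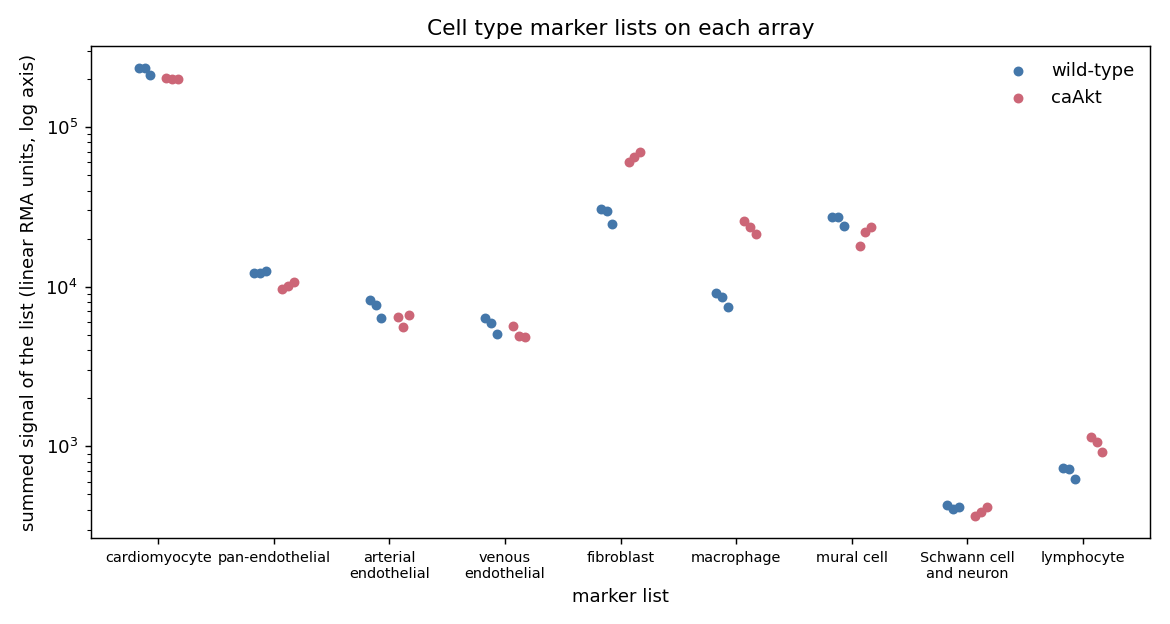
Summed signal of each cell type marker list (linear RMA units, log axis) on the 3 wild-type (blue) and 3 caAkt (red) arrays. Fibroblast, macrophage and lymphocyte sums are higher on all caAkt arrays. Cardiomyocyte, pan-endothelial and mural sums are lower on all of them, whereas arterial, venous and nerve sums overlap.

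Genes with a pattern like that of Efnb3 were ranked by the distance between mean-centred log2 values over the 6 arrays. The 5 closest of 18193 genes were Gstk1, Mylk4, Rpl3l, Car14 and Adhfe1, at distances of 0.29 to 0.51 against a median of 3.07. Gstk1 is a glutathione transferase, Mylk4 a muscle kinase, Rpl3l a ribosomal protein of striated muscle, Car14 a carbonic anhydrase and Adhfe1 a mitochondrial enzyme. Their log2 fold changes were -2.49, -2.37, -2.40, -2.64 and -2.19, so the likeness is mostly the shared difference between the groups.

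Akt1, the kinase of the transgene, read 9.79, 9.79 and 10.18 in wild-type and 15.16, 15.10 and 15.08 in caAkt arrays at its brightest probe set, higher on the arrays labelled caAkt. Its 3 other probe sets did not rise. One was called lower (-0.29 ± 0.08, limma over all probe sets, adjusted p = 0.0248), and the others gave -0.21 and 0.08 and were not called. The one called lower read 10.70, 10.69 and 10.73 in wild-type arrays, above the probe set used for Akt1. The probe set used for Akt1 thus had the highest mean over all arrays only through its caAkt values. The parts of Akt1 that the probe sets cover were not analysed here. Array medians were 6.77 to 6.80, and correlations over all probe sets were 0.995 to 0.997 within a genotype and 0.983 to 0.985 between genotypes.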

How the data were processed

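The series holds 6 arrays, 3 per genotype, with replicate numbers taken from the sample titles. The authors deposited log2 values that, per the submitters' processing notes, come from RMA in the package affy, with versions not given in the sources used here. RMA makes the distributions of the arrays alike, so that a shift common to most genes is lost. Of 45101 probe sets, 64 controls, 932 with several symbols and 9160 with none were left out, and 34945 with 1 symbol in the platform annotation were kept. Their gene identifiers matched the RefSeq table of GRCm38.p6 for 34741.

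Differences between genotypes were fitted in R 4.3.3 with the package limma 3.58.1 (functions lmFit and eBayes, defaults, two-sided, 4 residual degrees of freedom, Benjamini-Hochberg over 18193 genes). No filter was applied to dim probe sets. The steps were tested on simulated data. The number of arrays limits the precision. Members and lists were chosen with earlier results of these data known. Named genes were the members and other family genes with all their probe sets, Akt1, the 5 genes most like Efnb3, and up to 5 called genes per direction and pathway list with the smallest p. Pathway and marker genes and those most like Efnb3 are given at their brightest probe set only. Some of them have others, as Neo1 with 5 probe sets in all, whose single values are not given here. Some listed genes were not analysed here. Alternatives were other summaries of probe sets, a second quantile normalization, median centring, a filter leaving out the dimmest 25% of genes, eBayes with trend and robust settings, a threshold of 0.01, a block for the replicate number, and fits without single arrays.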

Additional observations from a re-analysis of the deposited data

How the results depend on the processing

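Efnb3, Efna1 and Epha4 were called lower under all alternatives run on gene values, and Efnb1 under all but plain probe sets only (-0.12, the value of its plain probe set alone). The dimmest Epha4 probe set had the opposite sign (0.045). Without single arrays, Ephb1 ranged from -0.30 (called, without wild-type replicate 3) to -0.14 and Efnb2 from -0.10 to 0.02. Called genes among the other 12 family members numbered 2 with the mean of probe sets, with plain probe sets only and with the replicate block, 0 at a threshold of 0.01, and 0 to 2 without single arrays, the call of Epha10 being the one lost. At a threshold of 0.01, 7 instead of 12 pathway genes and 1270 instead of 2254 of all genes were lower. With the replicate block the 4 member calls were unchanged. Deviations of same-numbered arrays from their group means correlated at 0.27, 0.03 and -0.12 over genes, 2 of 6 arrays correlating best with their own number, so the numbers were not treated as pairs. At 0.01, higher calls fell from 11 to 7 in forward signalling and from 10 to 6 among the other guidance genes. Higher calls over all genes fell from 2929 to 1985 at that threshold. Lower calls fell from 3 to 1 in reverse signalling and from 5 to 3 among the guidance genes. Lower guidance calls numbered 10 after a second quantile normalization, 9 with the mean of probe sets and 8 with the filter on dim genes. Lower calls over all genes were 2708, 2338 and 2206 in these settings.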

Other observations

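Other families of guidance cues, the semaphorins, plexins, netrins, slits and their receptors, were called about as often as genes at large in caAkt hearts. Of 50 genes measured, 10 rose and 5 fell (30% called, beside 28.5% of all genes), with a median log2 fold change of -0.10 beside -0.04 over all genes. The secreted semaphorins Sema3d and Sema3c rose by 1.04 ± 0.18 and 0.89 ± 0.08 (limma, adjusted p = 0.00210 and 3.63e-05), the plexin Plxnb2 by 0.79 ± 0.10, and the repellents Slit3 and Slit2 by 0.74 ± 0.12 and 0.71 ± 0.13. Ntn1, which encodes netrin-1, fell by 0.85 ± 0.08 (limma, adjusted p = 9.19e-05), its receptor Neo1 by 0.82 ± 0.13 and the plexin Plxnb1 by 0.61 ± 0.09. Robo4, an endothelial receptor, and Sema4b fell by 0.28 ± 0.07 and 0.25 ± 0.07. Robo4 was not called without wild-type replicate 2, caAkt replicate 1 or caAkt replicate 3, nor Sema4b without wild-type replicate 1, caAkt replicate 1 or caAkt replicate 2 (limma, adjusted p up to 0.0795). After a second quantile normalization 8 rose and 10 fell, so the balance of directions turned. The counts over all genes turned likewise, from 2929 higher and 2254 lower to 2669 higher and 2708 lower. The turn is thus not particular to the guidance genes. Lower calls among the guidance genes numbered 3 without caAkt replicate 1.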
